A study of Homo sapiens with 10 samples.

Results

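EGR1, EGR3, NR4A1, NR4A2, NR4A3, IER2, IER3, IER5 and SRF are described here across 10 arrays of 2 colon cancer lines and a macrophage line. The list was set by gene family and holds 10 genes: the early growth response genes EGR1, EGR2 and EGR3, the NR4A receptors, the immediate early response genes IER2, IER3 and IER5, and SRF, which drives many of them. A gene was represented by the probe set with the highest mean over all arrays among those that map to that symbol alone. This gave 9 of the 19775 genes with such a probe set, and EGR2 is not analysed here. NR4A3 lay below the filter on dim genes on every array, so 8 members were tested, among 13243 genes.

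The tumour cells were HCT116, established from a colorectal carcinoma, and Hke3, a single clone derived from HCT116. For each, 4 cultures were profiled, of which 1 was left untreated, 1 received vitamin D3, 1 was cocultured with THP1 macrophages and 1 had both. In coculture the cells were kept apart but shared soluble factors. THP1 cells, from a monocytic leukaemia, were measured untreated and after vitamin D3, which was given for 24 hours. Each condition had 1 array, and the labels do not say how the cultures were made. The error of a comparison is therefore the residual spread of the fitted model, drawn towards that of all genes. In the additive fit of line, coculture and vitamin D3 this residual is made up of their interactions, and every factor shares it. Where an SE is given with a number of pairs, such as 4, the number counts the array pairs alike in all but the factor compared. The SE is not the spread among those pairs. The labels give no genotype for Hke3, and what is particular to that clone cannot be told apart from the line. No array of THP1 cells after coculture was analysed here.

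Immediate early genes are transcribed within minutes of a signal, from factors already in the cell, and their messages are short-lived. Growth factors act through ERK, which phosphorylates ternary complex factors bound with SRF at CArG boxes, while cyclic AMP and calcium act through CREB at cyclic AMP response elements (CRE). The EGR proteins are zinc-finger transcription factors, the NR4A proteins are orphan nuclear receptors, and the IER proteins are small regulators of growth and survival that share little sequence.

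To show the elements that these pathways act on, 4 members' upstream sequences are printed: EGR1 and SRF, which hold CArG boxes, IER2, which holds a CRE core without a CArG box, and IER5, which holds neither. RefSeq promoter windows on GRCh38.p14 matched 7 of the 10 genes with 11 windows of 300 bases, and NR4A2 and IER3 had none. The chromosome that holds EGR3 was left out of this match, so whether EGR3 has a window is not given here. Each line gives the 250 bases before the annotated start, 5′ to 3′ on the gene's strand, and capitals mark CArG boxes and CRE cores.
EGR1: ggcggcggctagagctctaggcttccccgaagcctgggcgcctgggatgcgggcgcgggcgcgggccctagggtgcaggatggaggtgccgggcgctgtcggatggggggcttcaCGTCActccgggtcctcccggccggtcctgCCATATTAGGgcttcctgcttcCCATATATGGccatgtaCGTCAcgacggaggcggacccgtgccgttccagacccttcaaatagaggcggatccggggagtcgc
SRF: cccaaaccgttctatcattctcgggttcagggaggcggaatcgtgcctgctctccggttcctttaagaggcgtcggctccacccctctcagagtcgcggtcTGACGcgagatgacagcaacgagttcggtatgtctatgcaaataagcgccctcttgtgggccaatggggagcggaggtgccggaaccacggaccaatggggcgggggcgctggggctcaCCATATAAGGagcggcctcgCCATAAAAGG
IER2: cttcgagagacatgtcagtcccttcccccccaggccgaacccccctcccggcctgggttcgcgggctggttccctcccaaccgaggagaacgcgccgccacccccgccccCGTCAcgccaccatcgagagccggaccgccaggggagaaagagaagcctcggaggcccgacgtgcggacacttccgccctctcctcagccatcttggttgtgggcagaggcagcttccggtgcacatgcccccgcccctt
IER5: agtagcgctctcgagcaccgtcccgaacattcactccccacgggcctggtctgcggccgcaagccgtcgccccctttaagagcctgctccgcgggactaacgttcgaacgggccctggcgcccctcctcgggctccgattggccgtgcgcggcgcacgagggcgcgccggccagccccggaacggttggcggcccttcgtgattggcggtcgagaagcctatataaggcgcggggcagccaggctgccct
The printed stretches are chr5:138465229-138465478 for EGR1, chr6:43171019-43171268 for SRF, chr19:13150161-13150410 for IER2 and chr1:181088450-181088699 for IER5, all on the plus strand. Each window of 300 bases runs 50 bases further. Motifs were searched over the whole window on both strands, and the capitalised matches do not overlap each other. The EGR1 window held 2 CArG boxes, CCATATTAGG starting 105 bases and CCATATATGG starting 83 bases before the gene's start. RefSeq gives SRF 2 windows, and the one that holds CArG boxes is printed; the other, which starts at base 43172146, held neither motif. The printed SRF window also held 2 boxes, CCATATAAGG at 30 bases and CCATAAAAGG at 10 bases before the start. Of 35116 RefSeq promoter windows of this length, 1.29% held a CArG box and 0.0313% held 2 or more. The CRE core, TGACG or its complement CGTCA, occurred 2 times for EGR1 and 1 time each for SRF and IER2, against 24.6% of all windows with at least 1. EGR1 and SRF each held 1 match to the EGR site GCGNGGGCG, found in 9.43% of windows, and IER2 held 1 match to the ETS site CCGGAAG, found in 10.3%. The full CRE, TGACGTCA, occurred in 1.85% of windows and in none of the 4 printed here. A match describes the letters and not a factor's binding.

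The arrays were alike in overall scale, with medians from 6.15 to 6.21 log2. A measure of RNA quality separated the lines: the 3′ minus 5′ difference of the ACTB control probe sets, which is larger in degraded RNA, was 0.16 to 0.30 log2 on the HCT116 arrays, 0.56 to 0.94 on the Hke3 arrays, and -0.01 and 0.09 in THP1. The GAPDH control probe sets separated the lines by less, at -0.10 on all HCT116 arrays and -0.001 to 0.06 on the Hke3 arrays. In THP1 the GAPDH values were -0.10 and -0.11. Of 12 epithelial markers, 9 exceeded 6.18 log2 on every colon cancer array, and KRT20, LGALS4 and CDH17 did not. The summed linear intensity of 14 macrophage markers was 827 to 874 on colon cancer arrays without coculture, 834 to 908 with it, and 58646 to 72498 in THP1. ITGAM, 1 of the 14, did not separate them, at 6.64 to 7.01 log2 on the colon cancer arrays and 6.73 and 6.72 in THP1. Among these markers, SRGN reached 6.28 log2 on the Hke3 coculture array labelled with vitamin D3, against 3.93 to 4.90 on the other colon cancer arrays. The list as a whole did not follow it: the sum was 893 on that array and 908 on the other Hke3 coculture array. LAPTM5 and FCER1G were also at their highest of the colon cancer arrays there, while ITGB2, CSF1R, SPI1, ITGAM and AIF1 were at their lowest. CYP24A1, the vitamin D-degrading enzyme that the vitamin D receptor induces, was higher with vitamin D3 by 1.44 log2 in HCT116, 1.45 in Hke3 and 5.88 in THP1. On the coculture arrays it went against the labels, by -0.98 in HCT116 and -1.36 in Hke3, so vitamin D3 on the coculture arrays is given as labelled throughout. Bulk arrays cannot tell fewer expressing cells from less RNA per cell.

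**Figure D1:**
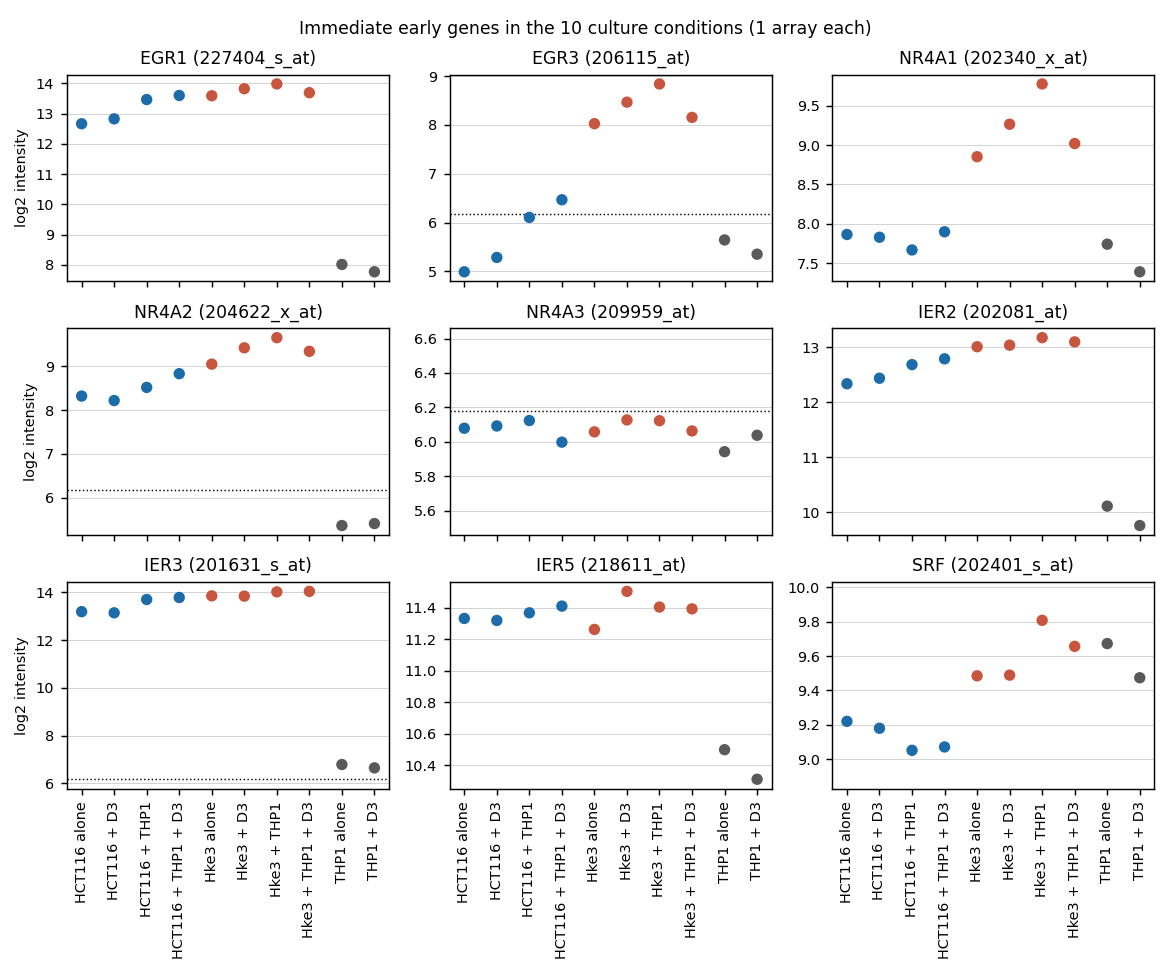
Log2 intensity (vertical axes) of the 9 members on each of the 10 arrays (horizontal axes, by condition), 1 point per array and 1 panel per gene (HCT116 blue, Hke3 red, THP1 grey), with 6.18 log2 dotted where it is in range. EGR3 is at 4.99 to 6.47 in HCT116 and at 8.03 to 8.84 in Hke3, while IER5 lies between 11.26 and 11.50 on all 8 colon cancer arrays.

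The comparison of the lines showed the immediate early genes higher in Hke3 than in HCT116. Of the 8 tested members, 7 were higher in Hke3 at an adjusted p of 0.05, and none was lower. Over all genes tested, 24.8% were higher in Hke3 and 15.7% lower, so a line difference was common. The members' median difference was 0.57 log2, against 0.01 for all genes. Each of the 7 was higher in 4 of 4 pairs, and for 6 of the 8 all Hke3 arrays lay above all HCT116 arrays, as they did for 21.1% of all genes. The ACTB 3′ minus 5′ difference was also higher on every Hke3 array than on any HCT116 array, and its part in these differences was not tested.

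EGR3, a zinc-finger factor induced by growth factor and antigen receptor signals, read 4.99 log2 in HCT116 alone, 5.28 with vitamin D3, 6.10 with THP1 and 6.47 with both. In Hke3 it read 8.03, 8.47, 8.84 and 8.15 in the same order of conditions. The 2 lines were far apart on every array. The difference was 2.66 ± 0.23 log2 (SE, 4 pairs; 6.32-fold; adjusted p = 0.000106). The HCT116 mean lies under 6.18 log2, the median of all values, where arrays compress differences, so the size is approximate. The gap was 3.11 log2 between arrays without coculture and 2.21 between coculture arrays.

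EGR1, the best-known member and a direct target of SRF, read 12.66 log2 in HCT116 alone, 12.83 with vitamin D3, 13.46 with THP1 and 13.60 with both. The Hke3 values were 13.59, 13.82, 13.98 and 13.69. The lines overlapped narrowly, because HCT116 with both treatments matched Hke3 alone. EGR1 was 0.63 ± 0.14 log2 higher in Hke3 (SE, 4 pairs; 1.55-fold; adjusted p = 0.00922). By this probe set, 227404_s_at, the call was lost among coculture arrays: the gap was 0.96 log2 (adjusted p = 0.000184) without coculture and 0.30 log2 (adjusted p = 0.0970) in a fit of the coculture arrays alone. These fits of 4 arrays each, added after the data were seen, have 1 residual degree of freedom, and 6 members passed in coculture against 7 without it, with 24.5% and 22.3% of all genes higher.

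Other probe sets of EGR1 gave a larger line difference. Probe set 201693_s_at read 8.29, 8.15, 8.81 and 8.93 log2 in HCT116 and 11.28, 11.20, 11.34 and 10.88 in Hke3, in the order alone, vitamin D3, THP1, both. On that probe set the lines did not overlap, in coculture or without it, and the difference was 2.63 log2 (6.21-fold; adjusted p = 2.4e-05). The remaining probe set, 201694_s_at, gave 1.18 log2 (2.26-fold; adjusted p = 0.000419). Its coculture arrays read 11.18 and 11.38 in HCT116 and 12.05 and 12.22 in Hke3, again apart. All 3 placed EGR1 higher in Hke3, and the size ran from 1.55-fold to 6.21-fold.

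NR4A1, an orphan nuclear receptor also called Nur77, read 7.86 log2 in HCT116 alone, 7.83 with vitamin D3, 7.67 with THP1 and 7.90 with both. The Hke3 values were 8.85, 9.27, 9.78 and 9.02, with no overlap. NR4A1 was 1.41 ± 0.18 log2 higher in Hke3 (SE, 4 pairs; 2.66-fold; adjusted p = 0.000564). Its probe sets disagreed: 211143_x_at gave 0.56 log2 (adjusted p = 0.0109), and 210226_at gave 0.03 (adjusted p = 0.696), with HCT116 at 7.45 to 7.68 and Hke3 at 7.545 to 7.599. The call for NR4A1 therefore rests on probe sets of the _x_at class, which hold probes that can also match other transcripts.

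NR4A2, the related receptor Nurr1, read 8.32 log2 in HCT116 alone, 8.22 with vitamin D3, 8.51 with THP1 and 8.83 with both. In Hke3 it read 9.04, 9.42, 9.65 and 9.34, above every HCT116 array. The difference was 0.89 ± 0.11 log2 (SE, 4 pairs; 1.86-fold; adjusted p = 0.000604). Here the other 2 probe sets gave 0.92 and 0.79 log2, so all 3 were close together. NR4A3, the third receptor of the family, read 5.998 to 6.12 log2 in HCT116 and 6.06 to 6.13 in Hke3, below the filter and not tested. Its probe set 216979_at read 4.14 to 4.49 log2 in HCT116 and 5.03 to 6.26 in Hke3. It exceeded the filter on 1 Hke3 array alone, so no test is given for it.

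**Figure D2:**
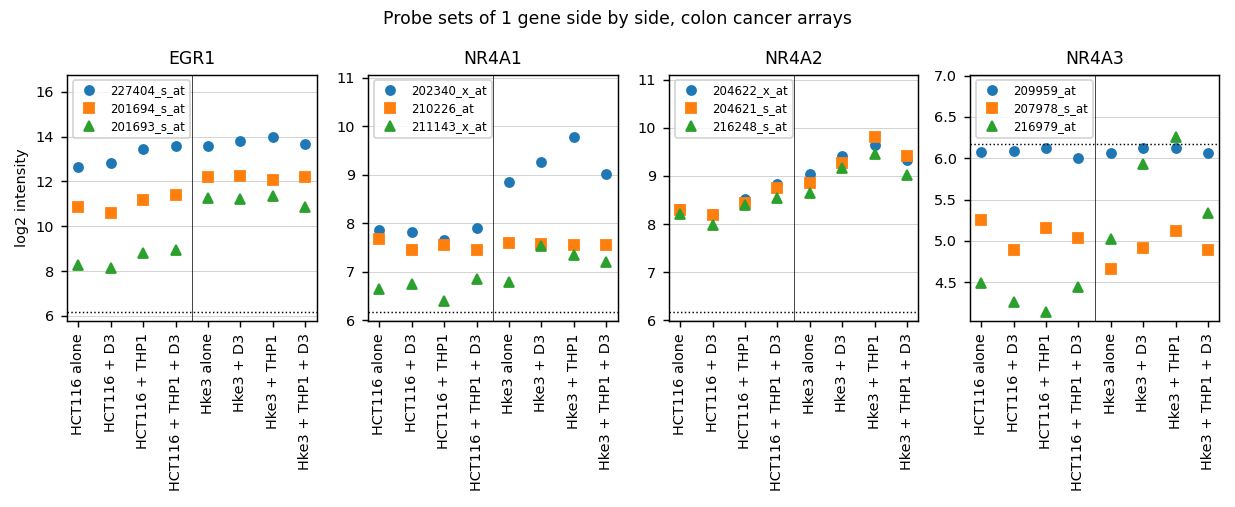
Log2 intensity (vertical axes) of every probe set of EGR1, NR4A1, NR4A2 and NR4A3 on the 8 colon cancer arrays (horizontal axes, by condition), 1 marker per probe set and array, with the dotted line at 6.18 log2 and the upright line between HCT116 and Hke3. Probe set 201693_s_at of EGR1 is at 8.15 to 8.93 in HCT116 and at 10.88 to 11.34 in Hke3, while 210226_at of NR4A1 lies between 7.45 and 7.68 on all 8 arrays.

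IER2, a nuclear protein induced by serum, read 12.34 log2 in HCT116 alone, 12.44 with vitamin D3, 12.68 with THP1 and 12.79 with both. In Hke3 it read 13.01, 13.04, 13.17 and 13.10. The lines did not overlap, and the difference was 0.52 ± 0.07 log2 (SE, 4 pairs; 1.43-fold; adjusted p = 0.000747). IER3, also called IEX-1, a regulator of cell survival downstream of NF-kB and ERK, read 13.19, 13.14, 13.70 and 13.78 in HCT116 and 13.85, 13.84, 14.01 and 14.04 in Hke3, in the same order. Its difference was 0.48 ± 0.09 log2 (SE, 4 pairs; 1.40-fold; adjusted p = 0.00292), again with no overlap. IER5, which acts with protein phosphatase 2A and heat shock factor 1, read 11.33, 11.32, 11.37 and 11.41 in HCT116 and 11.26, 11.50, 11.41 and 11.39 in Hke3. IER5 was the tested member that missed the threshold, at 0.03 ± 0.06 log2 (SE, 4 pairs; adjusted p = 0.689).

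SRF, the factor that binds the CArG box, read 9.22 log2 in HCT116 alone, 9.18 with vitamin D3, 9.05 with THP1 and 9.07 with both. The Hke3 values were 9.48, 9.49, 9.81 and 9.66. The lines did not overlap, and SRF was 0.48 ± 0.09 log2 higher in Hke3 (SE, 4 pairs; 1.39-fold; adjusted p = 0.00311). Its other probe set, at 5.77 to 6.17 on the colon cancer arrays, was too dim to test and differed by 0.07 log2.

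Across the 8 colon cancer arrays, the Hke3 coculture array labelled without vitamin D3 gave the highest value for 6 of the 9 members. An HCT116 array gave the lowest value for 8 of the 9, among them NR4A3, which lay below the filter with a range of 0.13 log2. The share of all genes with these patterns was not computed, and 24.8% of genes tested were higher in Hke3, so the counts are a description only. Many neighbouring conditions cannot be ordered: of the 9 gaps between neighbours in the order of all 10 arrays, 7 were smaller than the residual SD of the fit for EGR1, EGR3, NR4A1 and SRF. For IER3 and IER5 it was 6, for NR4A2 4, and for IER2, whose residual SD was 0.10 log2, 3.

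Other immediate early genes, 29 of 30 of which were tested, were higher in Hke3 for 20 and lower for 1, with a median of 0.63 log2. CCN2 and CCN1, secreted matricellular proteins and targets of YAP and SRF, were higher by 3.78 ± 0.15 and 2.10 ± 0.09 log2 (SE, 4 pairs). The kinase gene PLK2 was higher by 1.92 ± 0.08, the endothelial and T cell factor KLF2 by 1.70 ± 0.09, and the stress gene GADD45B by 0.99 ± 0.06. KLF4, an epithelial differentiation factor, was the lower one, at -0.66 log2. Of 13 upstream factors, partners and corepressors, 5 were higher and 1 lower, with a median of 0.17, against 24.8% higher and 15.7% lower over all genes. Each of these was smaller in size than the difference of any of the 7 members: MRTFA, the actin-regulated coactivator of SRF, was higher by 0.32 ± 0.05 log2, the ternary complex factor ELK1 by 0.22 ± 0.07, the NR4A partner RXRB by 0.31 ± 0.05 and the CREB coactivator CRTC3 by 0.25 ± 0.06. CREB1 itself was lower, at -0.34 ± 0.06 log2.

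The comparison of arrays with and without THP1 sets tumour cells that shared soluble factors with macrophages against those that did not. Soluble factors cannot be told apart here from other differences between these cultures. IER3 alone of the 8 tested members rose with coculture, and no member fell. Over all genes, 3.76% rose and 4.05% fell. IER3 rose by 0.51 log2 in HCT116 without vitamin D3, 0.64 in HCT116 labelled with it, 0.17 in Hke3 without and 0.20 in Hke3 labelled with it, so it was higher in 4 of 4 pairs. The difference over both lines was 0.38 ± 0.09 log2 (SE, 4 pairs; 1.30-fold; adjusted p = 0.0367). The call is fragile: the adjusted p was 0.0535 to 0.112 when any 1 of the 8 arrays was left out, and 0.0788 with a block of the other factors.

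Of the other members, IER2 was also higher in 4 of 4 pairs, by 0.35 and 0.35 log2 in HCT116 and 0.17 and 0.06 in Hke3, without and with the vitamin D3 label. All 4 pairs were higher for 12.9% of all genes. The IER2 difference, 0.23 ± 0.07 log2 (SE, 4 pairs), missed the threshold (adjusted p = 0.0759). EGR1 differed by 0.80 and 0.77 log2 in HCT116 and by 0.39 and -0.13 in Hke3. Its difference of 0.46 ± 0.14 log2 (SE, 4 pairs) missed the threshold (adjusted p = 0.0872), and the other EGR1 probe sets gave 0.23 and 0.26. EGR3 had the same form, with 1.11 and 1.18 log2 in HCT116 and 0.81 and -0.31 in Hke3, for a difference of 0.70 ± 0.23 (SE, 4 pairs; adjusted p = 0.0962). In both genes the negative pair is the one that includes the Hke3 coculture array labelled with vitamin D3. That sign depends on the vitamin D3 labels, which CYP24A1 went against on the coculture arrays. With those labels turned, that array is set against Hke3 alone, at 13.69 against 13.59 log2 for EGR1 and 8.15 against 8.03 for EGR3. The other Hke3 pair is then 13.98 against 13.82 for EGR1 and 8.84 against 8.47 for EGR3. The part of macrophage RNA in the coculture differences was not tested. Without that array EGR1 differed by 0.63 log2 (adjusted p = 0.0312) and EGR3 by 1.01 (adjusted p = 0.0204), and both passed while IER3 did not.

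**Figure D3:**
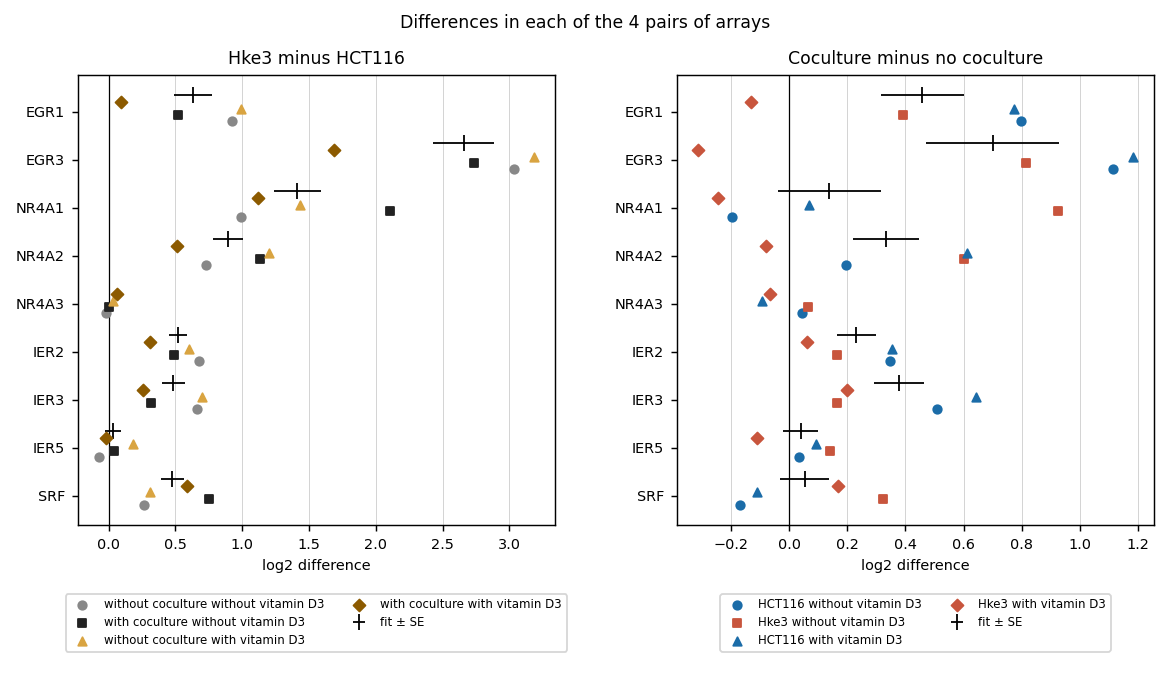
Log2 differences (horizontal axes) of each member in the 4 pairs of arrays, for Hke3 minus HCT116 on the left and coculture minus no coculture on the right, 1 marker per pair, with the fitted difference and its standard error as a cross for the tested members. On the right, the HCT116 pairs of EGR1, EGR3, IER2 and IER3 lie at 0.35 to 1.18 and the Hke3 pairs of these genes at -0.31 to 0.81. Arrays are paired by their vitamin D3 labels.

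With arrays paired by their vitamin D3 labels, the pairs of the NR4A genes were mixed in sign in both lines or in Hke3. NR4A2 differed by 0.20 and 0.61 log2 in HCT116 and by 0.60 and -0.08 in Hke3, for 0.33 ± 0.11 over both lines (SE, 4 pairs; adjusted p = 0.105). NR4A1 differed by -0.20 and 0.07 in HCT116 and by 0.92 and -0.25 in Hke3, with a signed mean of 0.14 ± 0.18 (SE, 4 pairs; adjusted p = 0.670). A single pair, Hke3 labelled without vitamin D3, holds the large NR4A1 value. With the vitamin D3 labels of the coculture arrays turned, the Hke3 pairs of NR4A1 are 9.02 against 8.85 and 9.78 against 9.27 log2. Those of NR4A2 are then 9.34 against 9.04 and 9.65 against 9.42, so the mixed signs in Hke3 depend on these labels. In HCT116 the NR4A1 pairs stay mixed, at 7.90 against 7.86 and 7.67 against 7.83. IER5 differed by 0.04 ± 0.06 and SRF by 0.05 ± 0.09 log2 (SE, 4 pairs), with adjusted p = 0.730 and 0.742. The members' median was 0.28 log2, against -0.02 for all genes.

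Fitted on the 4 HCT116 arrays alone, as an alternative added after the data were seen and with 1 residual degree of freedom, 4 of the 8 members rose with coculture, where 4.43% of all genes rose. They were EGR3 by 1.15 log2 (adjusted p = 0.00736), EGR1 by 0.79 (adjusted p = 0.0109), IER3 by 0.58 (adjusted p = 0.0226) and IER2 by 0.35 (adjusted p = 0.0491). EGR3 stayed near or under 6.18 log2 on these arrays, so its size is approximate. In the same fit of the Hke3 arrays none of the 8 passed, where 1.29% of all genes rose. The mean differences in Hke3 were 0.25 log2 for EGR3, 0.13 for EGR1, 0.18 for IER3 and 0.11 for IER2.

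Whether the coculture difference itself differed between the lines was tested with the interaction term, as Hke3 minus HCT116. None of the 8 members passed, where 4.21% of all genes did. An unadjusted p under 0.05 was found for 5 of the 8, and for 2900 of the 13243 genes tested. The values were -0.39 ± 0.09 log2 for IER3 (SE; adjusted p = 0.0635), -0.66 ± 0.17 for EGR1 (adjusted p = 0.0800), -0.90 ± 0.34 for EGR3 (adjusted p = 0.184) and -0.24 ± 0.10 for IER2 (adjusted p = 0.227). SRF went the other way, at 0.38 ± 0.10 log2 (adjusted p = 0.0779), with -0.17 and -0.11 in the HCT116 pairs and 0.32 and 0.17 in the Hke3 pairs. In the same terms, the gap between the lines was smaller in coculture for EGR1, EGR3, IER2 and IER3 and larger for SRF, at 0.29 log2 without and 0.67 with THP1, but no such change passed the test. EGR1, IER3 and SRF passed when the filter was raised to the 75th percentile of all values, with adjusted p = 0.0425, 0.0271 and 0.0362.

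Of the other immediate early genes, 4 of the 29 tested rose with coculture and none fell, with a median of 0.24 log2. Over all genes, 3.76% rose and 4.05% fell. The 4 were KLF4 by 0.63 ± 0.10 log2, the AP-1 subunit JUN by 0.51 ± 0.12, the ERK phosphatase DUSP5 by 0.41 ± 0.08 and the kinase PLK3 by 0.23 ± 0.06 (SE, 4 pairs). None of the 13 upstream factors, partners and corepressors passed. An unadjusted p under 0.05 was found for 5 of them, and for 3475 of the 13243 genes tested. For the interaction with cell line, 4 of the 29 immediate early genes passed, where 4.21% of all genes did. In 3 of them the coculture difference was lower in Hke3. These 3 were the growth arrest gene GADD45A at -1.07 ± 0.12 log2, the ERK phosphatase DUSP6 at -0.76 ± 0.12 and IER5L, a relative of IER5, at -0.59 ± 0.13. RGS2, a regulator of G protein signalling, had an interaction of 0.65 ± 0.11 log2, with means that went from 10.19 to 9.74 in HCT116 and from 10.69 to 10.88 in Hke3.

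For vitamin D3, none of the 8 tested members passed, and neither did any of the 13243 genes by limma (0%), of which 375 had an unadjusted p under 0.05, none of them a member. With the labels as given, the members' differences lay between -0.04 log2 for SRF and 0.10 for EGR3. With the vitamin D3 labels of the coculture arrays turned, an alternative added after the data were seen, they lay between -0.04 for IER3 and 0.26 ± 0.21 (SE, 4 pairs) for EGR3, with NR4A1 at 0.23 ± 0.16. No member passed then either, where 0.0151% of all genes did. The pairs varied in sign for some members both with and without coculture, and CYP24A1 went against the vitamin D3 labels on the coculture arrays. EGR3 differed by 0.29 and 0.44 log2 in HCT116 and Hke3 without coculture, and by 0.36 and -0.69 with it. NR4A1 differed by -0.04 and 0.41 without coculture and by 0.23 and -0.76 with it. On the arrays without coculture alone, an alternative added after the data were seen, no member passed either, where 0.00755% of all genes rose, and EGR3 differed by 0.37 ± 0.07 log2 (SE, 2 pairs; adjusted p = 0.503). No member and no gene passed by limma for the interaction of vitamin D3 with line or with coculture (0% for each), with 144 and 652 genes at an unadjusted p under 0.05 and no member among them, and the largest member values were 0.45 and 0.53 log2 in size, both for EGR3.

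THP1 cells held most members at lower levels than the colon cancer lines. In a fit of the 6 arrays without coculture, with 2 residual degrees of freedom, 7 of the 8 tested members were lower in THP1, where 39.1% of 13778 genes were lower and 27.2% higher. IER3 read 6.79 log2 in THP1 alone and 6.65 with vitamin D3, against 13.14 to 14.04 on the 8 colon cancer arrays. It was lower by 109.9-fold (adjusted p = 9.7e-07), a size that is approximate because the THP1 values lie not far above 6.18 log2. EGR1 read 8.02 and 7.77 in THP1, against 12.66 to 13.98, and was lower by 40.2-fold (adjusted p = 3.0e-06).

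NR4A2, at 5.37 and 5.42 log2 in THP1 against 8.22 to 9.65, was lower by 10.2-fold, a size that is approximate at such dim levels. IER2, at 10.11 and 9.75 against 12.34 to 13.17, was lower by 6.84-fold, and IER5, at 10.50 and 10.31 against 11.26 to 11.50, by 1.93-fold. For these 5 members both THP1 arrays lay below all 8 colon cancer arrays, as they did for 36.0% of genes. EGR3, at 5.64 and 5.35, was 2.29-fold lower than the mean of the 2 lines, yet both THP1 values were above the 4.99 and 5.28 of HCT116 without coculture, while Hke3 read 8.03 and 8.47. NR4A1, at 7.74 and 7.39, was 1.85-fold lower, with HCT116 close by at 7.86 and 7.83; by its other probe sets it missed the threshold (adjusted p = 0.0965 and 0.609). SRF, at 9.67 and 9.47, differed by 0.23 ± 0.08 log2 in the higher direction and missed the threshold (adjusted p = 0.0503).

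Between the THP1 arrays, which allow no test, no member moved past 1.5-fold with vitamin D3, where 6.59% of 12717 genes did. The differences ran from -0.35 log2 for NR4A1 and IER2 to 0.10 for NR4A3, with EGR1 at -0.24 and EGR3 at -0.29. On the same arrays CD14, a monocyte receptor that vitamin D induces, went from 8.29 to 13.77 log2. Of the other immediate early genes, 26 of 29 were lower in THP1 than in the colon cancer lines and 1 was higher, with a median of -2.23 log2. Of the upstream factors, partners and corepressors, 4 of 13 were higher and 6 lower, against 27.2% and 39.1% over all genes.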

How the data were processed

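Gene expression was measured on 10 one-colour Affymetrix arrays, grouped by their titles. The deposited values are log2 intensities, 1 for each probe set and array. They come from RMA (background correction, quantile normalisation and summary of probes) in affy, per the submitters' processing notes, with no version given. Quantile normalisation sets all arrays to 1 distribution, so a shift of all genes cannot be seen. The source field of the Hke3 array with vitamin D3 names no treatment, while its title, description and culture field give vitamin D3, and the array counts as treated here.

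The table holds 54675 probe sets, of which 41097 carry a single symbol, and 1801 with several symbols were left out. Testing required a maximum over the arrays of a fit above 6.18 log2, the median of all values. With limma 3.58.1 (R 4.3.3), values of the 8 colon cancer arrays were modelled on line, coculture and vitamin D3 with 4 residual degrees of freedom. An interaction was added singly (3 left), and THP1 was compared over the 6 arrays without coculture (2 left). Tests were two-sided, with Benjamini-Hochberg adjustment over all genes tested and a threshold of 0.05. The arrays may not be separate cultures, so p-values measure only the spread between them. Arrays give no counts, and their number limits the precision.

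The members, the gene lists and the alternatives were chosen with earlier results of these data known. All members are named, and from the lists up to 5 genes past the threshold per factor. Of 16 macrophage markers, 14 had a probe set of 1 symbol. Likeness was Pearson's r over the 8 colon cancer arrays, for the member of each family with the widest range. Alternatives were other filters, the mean or each of a gene's probe sets, centred arrays, cyclic loess, robust fitting with a trend, a 1.5-fold minimum, a block, each array left out in turn, all interactions together and no vitamin D3 labels. Fits of array subsets and a fit with the vitamin D3 labels of the coculture arrays turned were added after seeing the data. The model was tested on simulated data. Plots were made with matplotlib 3.10.9 (Python 3.11.15).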

Additional observations from a re-analysis of the deposited data

How the results depend on the processing

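Of the 8 members, 7 passed for cell line in every refit of all genes except a 1.5-fold minimum, which left 4, and the fit of coculture arrays alone, which left 6. For coculture the count of 1 became 2 with trend and robust fitting (IER2 and IER3), 0 at a 1.5-fold minimum, 0 with the block, 4 with all interactions together (EGR1, EGR3, IER2 and IER3), 4 with HCT116 arrays alone, 0 with Hke3 arrays alone, and 0 to 2 with 1 array left out; the 2, EGR1 and EGR3, came without the Hke3 coculture array labelled with vitamin D3. For the interaction of line and coculture, 0 became 3 with the 75th percentile filter (EGR1, IER3 and SRF), 2 with the mean of probe sets (EGR1 and IER3), 1 with cyclic loess (IER3), 2 with trend and robust fitting (IER3 and SRF), 1 without the vitamin D3 labels (IER3), and 0 to 2 with 1 array left out; here the 2, EGR1 and EGR3, came without the Hke3 coculture array labelled without vitamin D3. The THP1 count was 7 to 8 with 1 array left out; SRF also passed, as higher in THP1, without the THP1 array with vitamin D3, with the mean of probe sets and with trend and robust fitting.

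Signs turned for coculture in NR4A1 by probe set 210226_at (-0.054 log2) and SRF by the mean of probe sets (-0.031), and for the interaction of line and coculture in NR4A2 by the mean of probe sets (0.0044) and by 204621_s_at (0.19). With 1 array left out, the line difference of IER5 ran from -0.017 to 0.072 log2, the coculture differences of NR4A1 from -0.093 to 0.27 and of SRF from -0.022 to 0.12, and the interactions of NR4A1 from -0.077 to 0.88, NR4A2 from -0.40 to 0.11 and IER5 from -0.17 to 0.070. None of these had passed the threshold. For vitamin D3 and its interactions no member passed in any alternative run, the turned labels included.

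Over all genes, 1035 passed for coculture, and 39 to 459 with 1 array left out. No paired analysis was possible because each condition has 1 array and so no numbered replicates; the pairs and the block named here are of arrays alike in the other factors. Levels under 6.18 log2 lie near background, which limits EGR3 in HCT116, NR4A2 and EGR3 in THP1, and NR4A3 throughout.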

Other observations

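For the widest-ranging member of each family, the genes with the most similar pattern over the 8 colon cancer arrays were listed among 13235 candidates. The points share the split between the lines, so these correlations are a description only. For EGR3 they were CSTF3 (r = 0.995), FAM43A (0.993) and SLC46A3 (0.992). Over all 10 arrays, THP1 included, r was 0.90 for CSTF3, 0.015 for FAM43A and -0.07 for SLC46A3. For NR4A1 they were STUB1 (r = 0.992), the NF-kB target TNFAIP3 (0.990) and PNN (0.985), with 0.187, -0.136 and -0.047 over all 10 arrays. For IER3 they were RABGAP1L (r = 0.993), JRKL (0.989) and ACADVL (0.988). RABGAP1L also followed IER3 over all 10 arrays (r = 0.991), where JRKL gave 0.317 and ACADVL 0.410.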
